A study of Mus musculus with 21 samples.

Results

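Inhibitor withdrawal in the mouse embryonic stem cell line D3 was examined as the difference between 3 libraries of naive cells and 3 libraries of ground-state cells, which are 6 of the 21 RNA sequencing libraries of the series. The libraries were chosen by their labels alone, and no measured value entered the choice. D3 ground-state cells grew in DMEM with 10% fetal bovine serum, 1000 U/mL of leukaemia inhibitory factor (LIF), penicillin and streptomycin, beta-mercaptoethanol and the inhibitor pair abbreviated 2i, which by general usage blocks the kinases MEK and GSK3. D3 naive cells were ground-state cells from which the pair had been removed for 4 days, with serum and 1000 U/mL LIF listed for both stages. The same step was also sampled in a further line, A2, with 3 libraries a stage. The other 9 libraries of the series entered only the filter on low counts, the scaling and the estimate of spread. All D3 values thus describe 1 line. Whether the 3 replicates of a stage came from separate cultures is not in the labels, and the p-values therefore reflect only how much these libraries differed, which may be technical. In RNA from whole cultures, a lower level in every cell and fewer cells with the transcript cannot be told apart.

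Fibroblast growth factor 4, made by embryonic stem cells themselves, activates the kinases MEK and ERK, and ERK activity moves the cells away from self-renewal toward the state of the postimplantation epiblast. GSK3 marks beta-catenin for destruction and so holds Wnt signalling down. With both kinases inhibited, ERK target genes are kept low and Wnt target genes are kept high, while LIF maintains the naive transcription factors through STAT3. The comparison shows which transcripts differed once the inhibitors were gone and serum and LIF remained.

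Total counts ranged from 19599380 to 22246738 in the ground and from 17743542 to 18683783 in the naive libraries, and mitochondrially encoded genes took 1.94 to 2.49% and 1.53 to 2.35% of them. Levels below are CPM, read counts scaled to a common library size by TMM, listed for replicates 1, 2 and 3. Changes are log2 differences of naive minus ground with their standard errors, and a gene is said to have risen or fallen at a Benjamini-Hochberg adjusted p below 0.05 from edgeR's quasi-likelihood test over 16575 genes. Naive replicate 2 stood apart from the other 2 naive libraries. Over 7162 genes with a naive mean of at least 20 CPM, its log2 deviation from them had a Spearman rho of -0.704 with exon length, with a median of 0.37 in the 10% of genes with the shortest exons and -0.415 in the 10% with the longest. Such a trend was smaller in the ground libraries, with rho between -0.468 and 0.408. The log2 change itself had a rho of -0.177 with exon length over 7762 genes, and -0.0258 without naive replicate 2. These are descriptions across genes of the same libraries. Without that library 4048 genes rose and 4190 fell, against 4360 and 4526 with it, and results that turn on it are given both ways.

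The cultures carried the transcripts of pluripotent cells at both stages. The 11 markers of pluripotent identity summed to 7098 to 7499 CPM in the ground and 6903 to 7879.7 CPM in the naive libraries. Pou5f1, which encodes the pluripotency factor Oct4, stood at 1083, 1056 and 1162 CPM in ground and 1269, 1578 and 1346 CPM in naive libraries. Its naive libraries lay above its ground libraries (log2 change 0.35 ± 0.10, edgeR adjusted p = 0.00674), and the call was lost without naive replicate 2 (0.25, adjusted p = 0.0506). Sox2, the partner of Oct4, was measured at 401, 400.0 and 407 CPM in ground and 437, 447 and 416 CPM in naive libraries and did not pass the test (0.10 ± 0.072, adjusted p = 0.232). Zfp42, the marker also called Rex1, gave 965, 949 and 1000.0 CPM in ground and 1039, 1146 and 1057 CPM in naive libraries (0.15 ± 0.091, adjusted p = 0.163). For neither gene did the adjusted p reach the threshold, which does not show equal levels.

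Of the 16575 genes tested, 4360 rose (26.3%) and 4526 fell (27.3%), so that 53.6% were called in either direction. A change of at least 2-fold was found upward in 2031 genes (12.3%) and downward in 1382 (8.34%), and 909 and 488 of these reached 4-fold. The naive and ground libraries did not overlap in 9674 genes (58.4%). The median log2 change over all genes tested was 0.0072. Counts in the gene lists below are to be read against these shares. The lists were chosen with earlier results of these data known, and their counts are descriptions.

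The steepest rises brought up transcription factors and surface proteins that were low with the inhibitors present. Myrf, a membrane-bound transcription factor known from oligodendrocytes (ENSMUSG00000036098, GRCm38 chromosome 19, 10208272 to 10240748), had 1.77, 1.58 and 2.08 CPM in ground and 184, 134 and 151 CPM in naive libraries (6.44 ± 0.16, edgeR adjusted p = 1.72e-18). The paired-box factor Pax8 went from 0.114 ± 0.067 to 10.0 ± 1.2 CPM (SD, n = 3; 6.34 ± 0.38), and Pax6, a factor of eye and forebrain, from 0.227 ± 0.16 to 11.7 ± 2.1 CPM (5.59 ± 0.33). The zinc finger factor gene Bcl11a (6.18 ± 0.38) and the forkhead factor gene Foxp1 (5.84 ± 0.16) also stood among the 12 steepest. Zfp423, a zinc finger factor of neural and fat precursors, was at 3.14, 3.16 and 1.97 CPM in ground and 159, 124 and 138 CPM in naive libraries. The 12 were drawn only from genes without overlap between the libraries of the stages, so that separation is not a separate result. Among surface and secreted proteins, Cntfr, a receptor subunit of the LIF family, rose by 5.86 ± 0.25, the ectonucleotidase Enpp3 by 5.54 ± 0.14, the growth cone protein Gap43 by 5.52 ± 0.27 and the trypsin inhibitor Spink1 by 5.95 ± 0.42. Egr1 and the Notch ligand Dll1 complete the 12 and are described with their pathways.

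The steepest falls took enzymes, a channel and a surface antigen to low levels. Dmgdh, a mitochondrial enzyme of choline breakdown, had 58.8, 68.3 and 55.3 CPM in ground and 0.172, 0.111 and 0.0554 CPM in naive libraries (-9.01 ± 0.23, edgeR adjusted p = 4.1e-18). Trpm1, a cation channel known from melanocytes and retinal bipolar cells (ENSMUSG00000030523, GRCm38 chromosome 7, 64153835 to 64269775), had 182, 178 and 179 CPM in ground and 0.457, 0.610 and 0.554 CPM in naive libraries (-8.36 ± 0.28, adjusted p = 2.06e-16). Crxos, a homeobox gene, went from 57.6 ± 2.6 to 0.354 ± 0.059 CPM. The 12 steepest falls were likewise drawn only from genes without overlap between the stages. Ly6a, the surface antigen also called Sca-1, was high in ground, at 119.7, 124 and 95.5 CPM, and stood at 1.37, 0.942 and 0.720 CPM in naive libraries (-6.80 ± 0.18). The homeobox factor Nkx1-2 fell (log2 change -6.30 ± 0.30), as did the tryptophan dioxygenase Ido2 (-6.81 ± 0.26), the aldehyde oxidase Aox3 (-6.31 ± 0.31), the extracellular matrix protein Ccbe1 (-6.08 ± 0.37), the carboxylate transporter Slc16a9 (-5.75 ± 0.31) and the antibacterial protein Pglyrp1 (-5.75 ± 0.34). The remaining members of the 12, Bhmt and Bhmt2, are given with the choline enzymes.

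Ligands and receptors upstream of ERK changed in both directions. Of 19 tested, 10 rose and 6 fell, with a median log2 change of 0.69. Fgf17, a growth factor of the Fgf8 family, had 2.79, 2.74 and 3.28 CPM in ground and 72.7, 83.0 and 72.1 CPM in naive libraries (4.69 ± 0.11, edgeR adjusted p = 1.72e-18). Fgf15 rose from 0.553 ± 0.049 to 13.5 ± 0.97 CPM and Fgf1 from 0.328 ± 0.19 to 5.37 ± 1.3 CPM. Of Fgf5, the classical marker of the postimplantation epiblast, the ground libraries held 1 read in all and the naive libraries 49, a ratio of 54.4 (95% counting interval 9.32 to 2193, counting error only). These ligands were all low or absent under the inhibitors. Fgf4, the ligand that embryonic stem cells make in quantity, was slightly lower in naive cells, with 256, 240.2 and 277 CPM in ground and 205, 199.6 and 215 CPM in naive libraries (-0.32 ± 0.10). That call was lost without ground replicate 3 (log2 change -0.25, adjusted p = 0.0677).

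Among the receptors, Fgfr2 rose from 0.702 ± 0.087 to 7.24 ± 0.5 CPM (3.35 ± 0.19) and Fgfr3 from 0.200 ± 0.098 to 1.34 ± 0.13 CPM, whereas Fgfr1, the main FGF receptor of these cells, went from 159 ± 7.5 to 134 ± 11 CPM (-0.24 ± 0.066, not called in a fit of the 6 D3 libraries alone). Per length, Fgfr1 remained the highest of the 3 in naive libraries, at 13.6 RPKM (CPM divided by exon length in kilobases) against 0.701 for Fgfr2 and 0.187 for Fgfr3. The stem cell factor receptor Kit was the steepest faller of the list, with 333, 363 and 317 CPM in ground and 51.7, 39.9 and 54.5 CPM in naive libraries (-2.79 ± 0.13, edgeR adjusted p = 4.31e-14). The cascade from the receptors to ERK held no change of 2-fold. Of its 21 genes, 5 rose and 9 fell (median -0.11). Mapk3, which encodes ERK1, rose by 0.70 ± 0.09 and the small GTPase gene Mras by 0.73 ± 0.093. The scaffold gene Ksr1 (-0.83 ± 0.12) and the exchange factor gene Sos2 (-0.93 ± 0.15) fell, as did the receptor adaptor gene Frs2 (-0.54 ± 0.12).

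Feedback regulators of ERK, which ERK signalling itself induces, mostly rose. Of 19, 13 rose and 4 fell, and the median log2 change was 1.20. Spry4, an inhibitor of receptor signalling, had 22.5, 21.0 and 19.5 CPM in ground and 166, 156 and 194 CPM in naive libraries (3.03 ± 0.12, edgeR adjusted p = 2.05e-15). The phosphatase gene Dusp6, whose product acts on ERK in the cytoplasm, had 22.3, 21.5 and 19.5 CPM in ground and 83.9, 77.3 and 82.0 CPM in naive libraries (1.94 ± 0.069). The nuclear phosphatase genes Dusp4 (2.86 ± 0.24) and Dusp5 (2.63 ± 0.20) and the X-linked Dusp9 (1.97 ± 0.10) rose as well. In none of these 5 genes did the stages overlap.

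Immediate early genes are transcribed within minutes of growth factor signals. Counted in 1 list with the Myc family, 13 of 25 rose and 5 fell (median 0.55). Egr1, a zinc finger factor, had 0.962, 0.744 and 0.547 CPM in ground and 63.2, 55.5 and 52.5 CPM in naive libraries (6.23 ± 0.27, edgeR adjusted p = 1.58e-14). Fos, a subunit of AP-1, was less steep, with 0.608, 0.976 and 0.766 CPM in ground and 4.29, 2.88 and 2.10 CPM in naive libraries (1.96 ± 0.28). Maff, a small partner of basic leucine zipper factors, rose by 2.11 ± 0.19, and Zfp36, which encodes a protein that destabilises short-lived messages, by 0.89 ± 0.17. The Myc family moved apart. Myc had 16.3, 15.4 and 16.3 CPM in ground and 96.5, 107 and 97.8 CPM in naive libraries (2.65 ± 0.10), and Mycn rose from 133 ± 5.5 to 259.8 ± 6.8 CPM. Mycl had 50.5, 50.5 and 51.0 CPM in ground and 10.5, 12 and 11.2 CPM in naive libraries (-2.17 ± 0.11). Per length, Myc rose from 5.89 to 36.9 RPKM, Mycn from 40.4 to 78.9, and Mycl went from 12.6 to 2.78, so that Mycn was the highest of the 3 at both stages.

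The CArG box is the element bound by serum response factor at many immediate early genes. It was searched on both strands in the 250 bases before each RefSeq start site at hand (GRCm38.p6). Such promoters were there for 11954 of 16572 tested symbols, so a gene not named with a match may not have been searched. It lay in 6 of 25 promoters of the immediate early and Myc list (24%) against 1.18% of the 15217 promoters of tested genes. Of these 6, 4 are alternative start windows of the single gene Egr2, 3 of them overlapping, so that the list held 3 genes with a match, Egr2, Srf and Zfp36, of 19 with a promoter. Of the ERK feedback regulators 1 of 16 promoters matched, that of Dusp5. The box also lay in 2 of 22 promoters of Wnt target genes, 1 of 24 of formative epiblast genes and 1 of 32 of lysosome and autophagy genes. This is a description of letters, not of binding. The promoters of Zfp36 from the first list and Dusp5 from the second, both of which rose, are shown with the CArG matches in capitals, adjoining copies running together in Dusp5.
Dusp5 promoter (chr19:53528895-53529144, plus strand): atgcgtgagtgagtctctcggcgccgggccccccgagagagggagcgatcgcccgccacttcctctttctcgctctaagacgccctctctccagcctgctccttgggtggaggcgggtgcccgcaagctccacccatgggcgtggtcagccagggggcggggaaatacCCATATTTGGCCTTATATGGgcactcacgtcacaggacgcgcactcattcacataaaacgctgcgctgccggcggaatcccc
Zfp36 promoter (chr7:28379229-28379478, minus strand): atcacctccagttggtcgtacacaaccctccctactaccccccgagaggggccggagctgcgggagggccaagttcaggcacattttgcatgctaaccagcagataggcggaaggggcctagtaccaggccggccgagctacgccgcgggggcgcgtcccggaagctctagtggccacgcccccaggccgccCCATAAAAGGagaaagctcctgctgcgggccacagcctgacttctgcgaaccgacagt

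**Figure D1:**
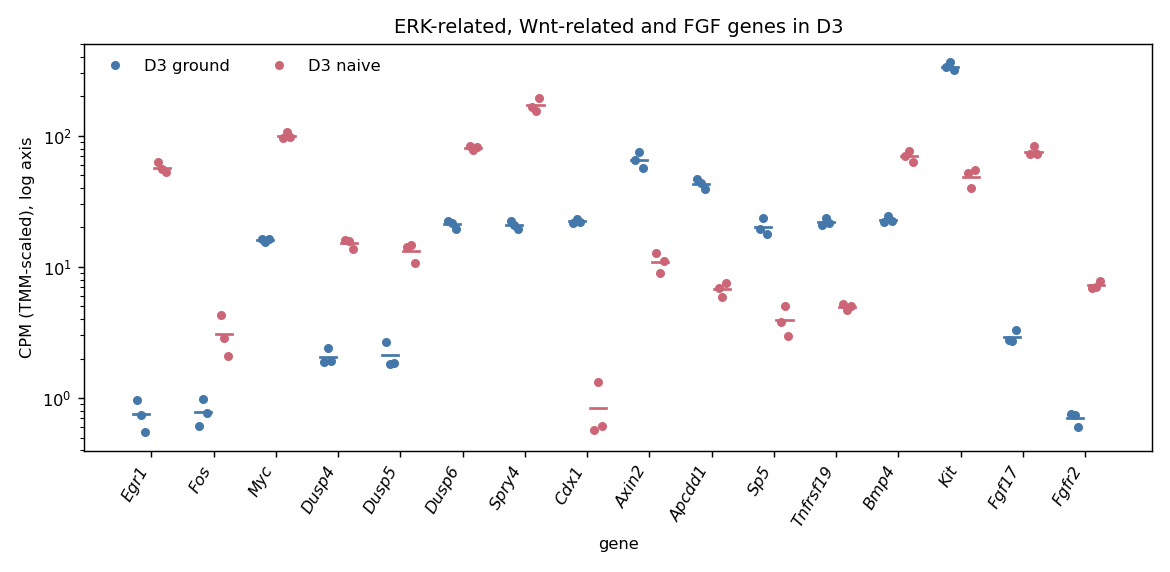
Levels of 16 genes in the 6 D3 libraries (y axis, CPM on a log axis; points, single libraries; bars, means of 3). Egr1, Fos, Myc, the Dusp genes, Spry4, Bmp4, Fgf17 and Fgfr2 sit higher in naive libraries, and Cdx1, Axin2, Apcdd1, Sp5, Tnfrsf19 and Kit lower, with no overlap between stages.

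Target genes of Wnt signalling moved in both directions. Of 21 tested, 11 fell and 6 rose (median -0.34). Axin2, a feedback inhibitor and the most used reporter of beta-catenin activity, had 65.2, 75.2 and 57.0 CPM in ground and 12.8, 9.03 and 11.1 CPM in naive libraries (-2.59 ± 0.15, edgeR adjusted p = 2.66e-12). Cdx1, a caudal homeobox factor, had 21.7, 23.0 and 22.1 CPM in ground and 0.572, 1.33 and 0.609 CPM in naive libraries (-4.72 ± 0.26), and its relative Cdx2 had 3.24, 3.07 and 2.85 CPM and 0.572, 0.166 and 0.166 CPM (-3.33 ± 0.37). The Wnt antagonist Apcdd1 fell (log2 change -2.67 ± 0.12), as did the zinc finger repressor gene Sp5 (-2.36 ± 0.20) and Tnfrsf19, a receptor also called Troy (-2.15 ± 0.13). All naive libraries of these 6 genes were below all ground libraries. Members of the list that rose included Lef1, a TCF family factor that marks the formative epiblast (2.37 ± 0.28), Zcchc12 (2.69 ± 0.39), the Dishevelled-binding Nkd2 (2.23 ± 0.35) and Bmp4, which is counted again with the BMP genes (1.61 ± 0.091).

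The TCF/LEF heptamer CTTTGAT, searched on both strands, lay in 2 of 22 promoters of the Wnt target list (9.09%) and in 2.29% of the promoters of all tested genes. The CArG box also lay in 2 of the 22 (9.09%), against 1.18% of all. A share above that of all genes was thus not particular to the TCF/LEF letters. Both promoters with the heptamer belong to genes that fell, as did 11 of the 21 list members tested. They are shown with the match in capitals, Tnfrsf19 carrying it on the other strand.
Sp5 promoter (chr2:70474673-70474922, plus strand): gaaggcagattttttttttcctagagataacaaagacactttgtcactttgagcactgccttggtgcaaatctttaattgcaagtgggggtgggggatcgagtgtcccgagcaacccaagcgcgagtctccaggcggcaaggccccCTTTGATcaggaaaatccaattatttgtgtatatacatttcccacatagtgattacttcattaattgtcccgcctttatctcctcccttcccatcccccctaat
Tnfrsf19 promoter (chr14:61037988-61038237, minus strand): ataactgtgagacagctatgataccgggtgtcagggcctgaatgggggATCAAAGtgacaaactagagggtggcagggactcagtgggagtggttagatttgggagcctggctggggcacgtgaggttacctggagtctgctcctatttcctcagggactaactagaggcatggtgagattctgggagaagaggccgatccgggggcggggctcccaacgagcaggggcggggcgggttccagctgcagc

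Wnt ligands, receptors and secreted modulators rose in 11 and fell in 9 of 27. Wnt5a, a ligand that mostly signals without beta-catenin, had 3 reads in the ground and 132 in the naive libraries, a ratio of 48.9 (95% counting interval 16.4 to 240.0). Its paralog Wnt5b went the other way, from 5.33 ± 0.42 to 0.730 ± 0.3 CPM (-2.86 ± 0.25). The ligand gene Wnt6 rose by 1.98 ± 0.28 and the R-spondin gene Rspo1 by 1.91 ± 0.24, and the receptor gene Fzd10 had 79.5, 86.2 and 80.2 CPM in ground and 26.6, 24.6 and 25.5 CPM in naive libraries (-1.68 ± 0.10). The intracellular machinery was called in 1 direction only in this fit. Of 16 genes of the destruction complex, its Dishevelled regulators and the TCF factors, none rose and 10 fell (median -0.34), although 1 rose with RLE or total-count scaling, with DESeq2 and without naive replicate 3. Gsk3b, which encodes a kinase that 2i by general usage blocks, had 88.7, 92.1 and 85.3 CPM in ground and 54.1, 35.3 and 46.4 CPM in naive libraries (-0.97 ± 0.12). Apc, the scaffold of the complex, fell (-0.76 ± 0.17), together with the beta-catenin coactivator gene Bcl9l (-1.20 ± 0.19), Dvl3 (-0.85 ± 0.14) and Tcf7l2 (-0.76 ± 0.15). Naive replicate 2 was the lowest naive library for these 5 genes, and the count of falls in the list was also 10 without it. Ctnnb1, which encodes beta-catenin itself, measured 957 ± 40.1 and 934 ± 38 CPM and did not pass the test (-0.035 ± 0.061, adjusted p = 0.658).

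LIF was listed at the same dose for both stages, and genes of the LIF and STAT3 pathway rose in 8 and fell in 6 of 21 (median 0.12). Stat3 had 144 ± 5.1 CPM in ground and 128 ± 12 CPM in naive libraries and did not pass the test (-0.17 ± 0.076, adjusted p = 0.0681), although it did without naive replicate 1 (log2 change -0.21, adjusted p = 0.0323). The feedback inhibitor gene Socs3 rose by 0.40 ± 0.12, Cish by 1.30 ± 0.22 and the kinase gene Pim3 by 1.10 ± 0.09. Tfcp2l1, a transcription factor downstream of STAT3, was the steepest faller, with 1416, 1436 and 1342 CPM in ground and 296, 199.9 and 323 CPM in naive libraries (-2.36 ± 0.14, edgeR adjusted p = 2.34e-12). The receptor-bound kinase gene Jak2 also fell (-1.18 ± 0.17). The members named here thus changed in both directions, and the part of LIF in these changes was not tested.

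BMP genes rose in 9 and fell in 6 of 22. The ligand gene Bmp4 had 21.8, 24.4 and 22.3 CPM in ground and 70.2, 76.1 and 63.5 CPM in naive libraries. Id1, a direct BMP target that blocks basic helix-loop-helix factors, had 13.3, 9.06 and 12.2 CPM in ground and 124, 127 and 129 CPM in naive libraries (3.46 ± 0.15, edgeR adjusted p = 2.64e-14), and Id2 rose by 2.80 ± 0.12. Id4 fell instead (-1.69 ± 0.17), as did the transducer gene Smad9 (-3.08 ± 0.49). Of 19 Nodal and activin genes, 6 rose and 7 fell. The activin subunit gene Inhbb had 10.6, 8.55 and 8.21 CPM in ground and 107, 95.4 and 106 CPM in naive libraries (3.50 ± 0.17), and the Nodal antagonist gene Lefty1 rose by 2.19 ± 0.30. Nodal fell (-0.45 ± 0.073), as did the transducer gene Smad3 (-1.70 ± 0.13) and the activin-binding protein gene Fst (-1.97 ± 0.19). The repressor gene Skil rose (1.98 ± 0.11).

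Notch genes rose in 8 and fell in 3 of 18 tested. Dll1, a ligand, had 0.101, 0.0465 and 0.110 CPM in ground and 4.34, 5.71 and 5.32 CPM in naive libraries (5.83 ± 0.28, edgeR adjusted p = 1.11e-13), and the ligand gene Jag2 rose by 1.81 ± 0.14. The glycosyltransferase genes Lfng (3.83 ± 0.21) and Mfng (2.54 ± 0.17), whose products modify Notch receptors, rose with them. Retinoic acid genes rose in 11 and fell in 4 of 20. The nuclear receptor gene Rxrg had 1 read in the ground and 146 in the naive libraries, a ratio of 162.2 (95% counting interval 28.7 to 6449). Binding protein genes Crabp1 (1.99 ± 0.19) and Crabp2 (2.40 ± 0.24) rose, and the synthesising enzyme gene Aldh1a3 fell (-2.46 ± 0.38).

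Naive pluripotency factors fell in 12 and rose in 3 of 21, with a median log2 change of -0.33. Nanog had 876, 858 and 945 CPM in ground and 415, 409 and 438 CPM in naive libraries (-1.09 ± 0.085, edgeR adjusted p = 3.31e-10). Klf4 had 263, 266 and 277 CPM and 178, 165 and 164 CPM (-0.67 ± 0.10). Esrrb had 959.7, 926 and 917 CPM and 693, 613 and 627 CPM (-0.54 ± 0.11). No ground library of these 3 transcription factor genes overlapped a naive library, and all 3 genes stayed well expressed in naive cells. Tbx3 (-1.37 ± 0.076), the adhesion molecule gene Pecam1 (-1.45 ± 0.071), Prdm14, a repressor of DNA methylation genes (-1.0 ± 0.10), and Dppa3, a protein of germ cells and early embryos also called Stella (-1.73 ± 0.17), fell too. Gbx2, a homeobox target of LIF, rose from 19.9 ± 0.41 to 65.3 ± 4.5 CPM (1.71 ± 0.14).

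None of the 15 factors shared by naive and later pluripotent states fell, and 10 rose. Lin28a, an RNA-binding protein that blocks let-7 maturation, had 97.6, 96.5 and 107 CPM in ground and 486, 429 and 427 CPM in naive libraries (2.16 ± 0.08, edgeR adjusted p = 1.32e-15), and its paralog Lin28b rose by 1.77 ± 0.13. Utf1, a chromatin factor, had 156, 159 and 158 CPM and 514, 671 and 462 CPM (1.80 ± 0.14). The neighbouring genes Dppa2 (1.22 ± 0.077) and Dppa4 (1.53 ± 0.082), which lie side by side on chromosome 16, rose together.

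All 20 formative epiblast genes tested rose, 15 of them at least 2-fold, with a median of 2.49. Pou3f1, the POU factor also called Oct6, had 1.52, 0.558 and 1.15 CPM in ground and 16.2, 19.2 and 16.9 CPM in naive libraries (4.03 ± 0.20, edgeR adjusted p = 2.25e-13). Tcf15, a basic helix-loop-helix factor, had 5.12, 4.60 and 5.97 CPM and 74.2, 100.9 and 71.1 CPM (3.98 ± 0.20). Otx2, the homeobox factor that directs entry into the formative state, had 7.85, 6.32 and 6.84 CPM and 19.2, 24.3 and 23.9 CPM (1.68 ± 0.12). All naive libraries of these 3 genes lay above the ground libraries. Sox11 (3.92 ± 0.18) and Grhl2, a factor of epithelial enhancers (3.88 ± 0.12), rose as well. Per length in naive cells, Otx2 reached 5.33 RPKM, Pou3f1 4.53, Fgf5 0.364 and Dnmt3l, also on this list, 164, against 188 for Nanog, 55.4 for Klf4 and 107 for Esrrb.

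**Figure D2:**
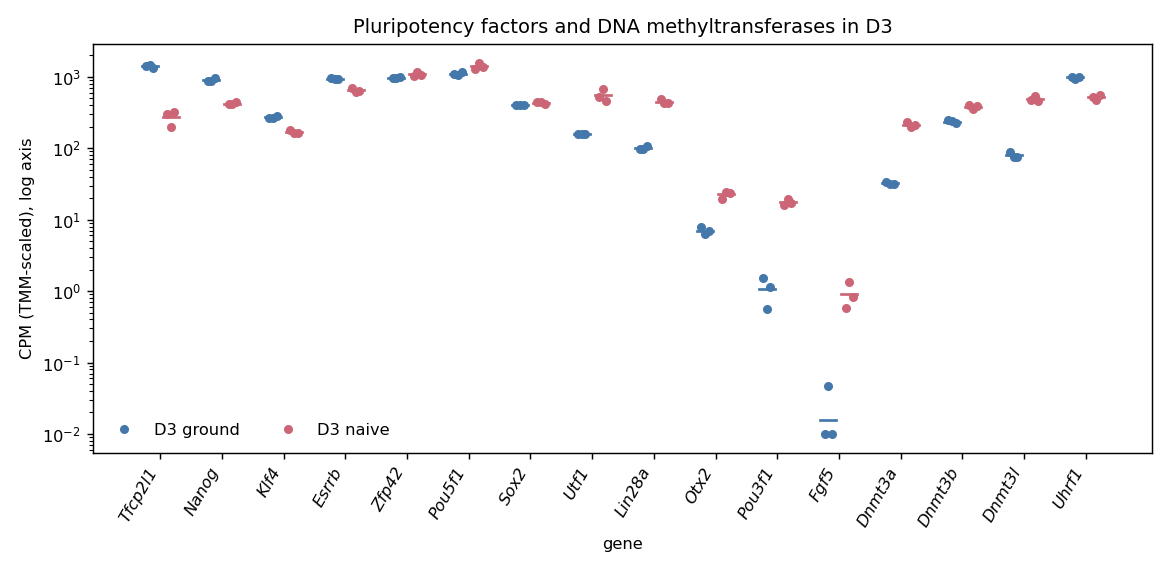
Levels of pluripotency factors and DNA methyltransferase genes in the 6 D3 libraries (y axis, CPM on a log axis; points, single libraries; bars, means of 3; the ground libraries of Fgf5 at 0 are drawn at 0.01). Sox2 and Zfp42 are the only genes drawn that did not pass the test, while Otx2, Pou3f1, Fgf5, Dnmt3a and Dnmt3l sit higher and Tfcp2l1, Nanog and Uhrf1 lower in naive libraries.

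The genes of de novo DNA methylation rose, and the genes of its maintenance fell. Dnmt3a, a de novo methyltransferase, had 34.1, 31.4 and 31.8 CPM in ground and 233, 197 and 209.7 CPM in naive libraries (2.72 ± 0.078, edgeR adjusted p = 1.84e-17). Dnmt3l, its catalytically inactive cofactor, had 88.0, 75.5 and 76.2 CPM and 478, 532 and 460.2 CPM (2.62 ± 0.091), and Dnmt3b had 246, 236 and 226 CPM and 399, 348 and 394 CPM (0.69 ± 0.081). Uhrf1, which brings the maintenance enzyme to newly replicated DNA, went from 985, 940.1 and 999 CPM in ground to 524, 469 and 558 CPM in naive libraries (-0.91 ± 0.082), and Dnmt1 fell by less (log2 change -0.37 ± 0.10). Per length, Dnmt3b stood above Dnmt3a at both stages, at 46.2 and 74.5 RPKM against 1.95 and 12.8. Tet1, which oxidises methylcytosine, had 464, 486 and 413 CPM in ground and 745, 412 and 822 CPM in naive libraries. Its stages overlapped through naive replicate 2. The change of 0.54 ± 0.20 was 0.79 without that library and was not called without ground replicate 3, naive replicate 1 or naive replicate 3 (adjusted p = 0.0725, 0.0787 and 0.152). Of the whole list of 19, 8 rose and 7 fell, the methyl-binding Mbd1 most steeply (-1.20 ± 0.14).

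Polycomb genes, whose products silence developmental genes through histone marks, rose in 6 and fell in 11 of 27 (median -0.07). The accessory subunit gene Phf19 rose from 1.73 ± 0.55 to 12.5 ± 1.1 CPM (2.85 ± 0.19) and Jarid2 by 1.11 ± 0.092. The core subunit gene Suz12 had 451, 453 and 445 CPM in ground and 251, 195 and 236 CPM in naive libraries (-0.98 ± 0.079, edgeR adjusted p = 5.48e-10). Its partners Ezh2 (0.18 ± 0.065) and Eed (0.26 ± 0.069) rose by small amounts, and the call of Ezh2 was lost without naive replicate 2 (log2 change 0.17, adjusted p = 0.056) and with no filter on low counts (adjusted p = 0.0545). The chromodomain gene Cbx8 (-2.41 ± 0.24) and the variant complex subunit gene Pcgf1 (-1.29 ± 0.15) fell. Of 35 other histone-modifying enzymes, 5 rose and 9 fell, and 21 were not called. The deacetylase gene Hdac7 (-2.65 ± 0.17), the demethylase gene Kdm3b (-1.40 ± 0.11), the methyltransferase gene Setdb1 (-0.83 ± 0.075) and Kmt2b (-0.55 ± 0.13) fell, and the demethylase gene Kdm4c rose by 0.89 ± 0.085.

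Imprinted genes, which are expressed from 1 parental copy, rose in 20 and fell in 2 of 30 tested (median 0.83). The 2 falls were Igf2r and Plagl1, and 1 fell with RLE or total-count scaling, with DESeq2, in a fit of the 6 D3 libraries alone and without ground replicate 1 or naive replicate 2. Cdkn1c, a cyclin-dependent kinase inhibitor, had 1.37, 1.16 and 1.53 CPM in ground and 40.2, 52.4 and 42.8 CPM in naive libraries (5.06 ± 0.14, edgeR adjusted p = 1.06e-17). Phlda2, which lies in the same imprinted cluster of chromosome 7, had 3.24, 4.23 and 5.20 CPM and 56.0, 81.7 and 59.3 CPM (3.96 ± 0.20). The noncoding RNA H19 (4.07 ± 0.33), the Notch-like ligand gene Dlk1 (3.34 ± 0.21), Nnat (3.30 ± 0.22), the retrotransposon-derived Peg10 (2.82 ± 0.20), Mest (1.68 ± 0.10) and Snrpn (1.80 ± 0.10) rose as well. Meg3 had 83.8, 124 and 89.7 CPM in ground and 179, 120.2 and 185 CPM in naive libraries, overlapping through naive replicate 2 (0.70 ± 0.22, and 0.87 without that library), and the call was lost without ground replicate 1 (adjusted p = 0.0513). Plagl1, a zinc finger regulator of other imprinted genes, went from 116, 112 and 109 CPM in ground to 5.55, 3.44 and 4.93 CPM in naive libraries (-4.60 ± 0.21). Counts do not show which parental copy was read.

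Of 9 genes of X inactivation and the Y chromosome, 4 rose and 2 fell. Rlim, an X-linked ubiquitin ligase that activates Xist, rose by 0.79 ± 0.10, and the noncoding Ftx by 1.15 ± 0.20 and Tsix by 0.86 ± 0.20. Tsix is antisense to Xist, and the library kit does not mark the strand, so reads of the pair cannot be told apart where they overlap. The Y-linked Ddx3y (-0.50 ± 0.12) and Eif2s3y (-0.47 ± 0.094) fell and remained well expressed, with naive means of 80.5 ± 15 and 58.2 ± 5.6 CPM. Germline genes rose in 11 and fell in 7 of 25. The helicase gene Ddx4, also called Vasa, had 3.04, 4.74 and 3.06 CPM in ground and 17.3, 16.5 and 16.2 CPM in naive libraries (2.19 ± 0.14), and the piRNA pathway genes Mael (1.97 ± 0.16), Piwil2 (1.74 ± 0.15) and Tdrd1 (2.69 ± 0.31) rose, while the RNA-binding Dazl fell (-1.86 ± 0.15). Genes of the rare 2-cell-like state rose in 14 of 19 with no fall, summing to 7.77 to 13.1 CPM in ground and 36.8 to 55.9 CPM in naive libraries. Zscan4d had 1.37, 1.16 and 0.657 CPM and 7.72, 7.04 and 10.1 CPM (2.94 ± 0.29) and Zscan4c 0.962, 0.604 and 0.602 CPM and 4.69, 5.32 and 5.93 CPM (2.87 ± 0.30). These near-identical copies share reads, so the split between them is uncertain and the list is not 14 independent observations.

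**Figure D3:**
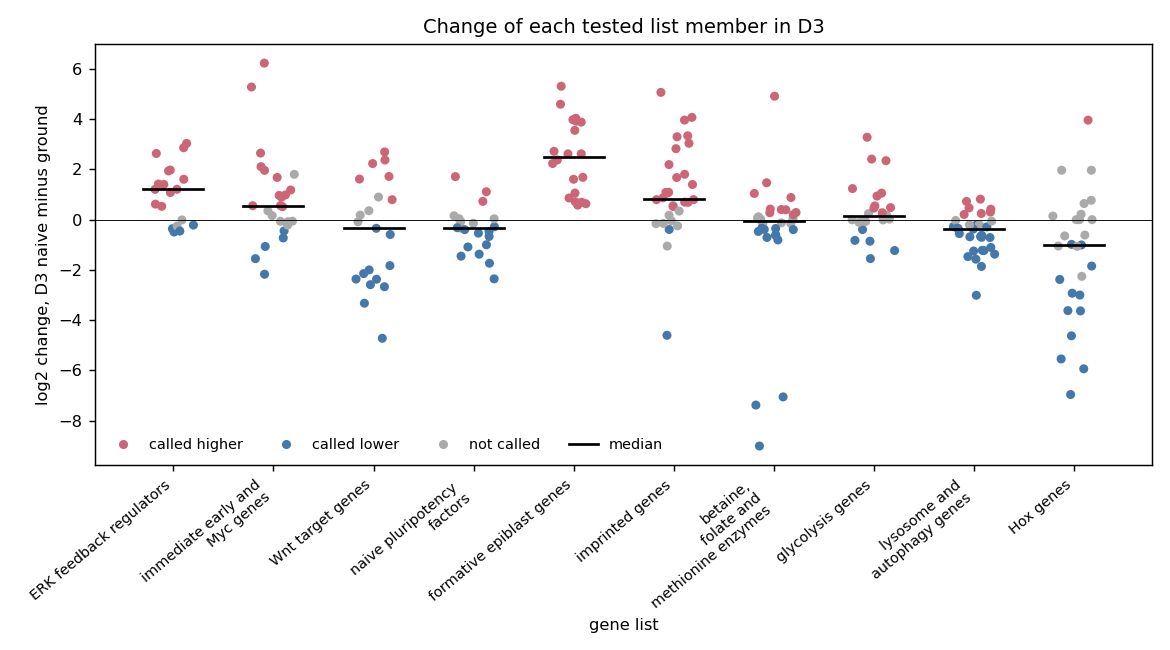
Log2 change in D3, naive minus ground (y axis), of each tested member of 10 gene lists (x axis; points, single genes coloured by their call; bars, medians). Every formative epiblast gene lies above 0, lysosome and autophagy genes gather below it, and the betaine, folate and methionine list has 3 members below -7 among members near 0.

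The steepest metabolic change lay in 3 adjacent genes of choline breakdown on chromosome 13. Bhmt and Bhmt2 encode methyltransferases that pass a methyl group from betaine or S-methylmethionine to homocysteine, and Dmgdh encodes the dehydrogenase that takes up the dimethylglycine formed from betaine. Bhmt (ENSMUSG00000074768, GRCm38 chromosome 13, 93616675 to 93637961) had 27.9, 31.3 and 24.9 CPM in ground and 0.0572, 0.111 and 0.443 CPM in naive libraries (-7.05 ± 0.37, edgeR adjusted p = 3.85e-13). Bhmt2 (chromosome 13, 93655720 to 93674302) had 19.6, 20.7 and 18.6 CPM and 0.0572, 0.222 and 0.0554 CPM (-7.38 ± 0.27, adjusted p = 1.12e-15). Dmgdh (ENSMUSG00000042102) runs from 93674433 to 93752833, in the opposite orientation to Bhmt2. All 3 are among the 12 steepest falls, which were drawn only from genes without overlap between the stages. On the Bhmt side the next gene tested, Jmy, an actin regulator (chromosome 13, 93430101 to 93499808), had 39.9, 37.9 and 35.1 CPM in ground and 29.6, 20.7 and 31.4 CPM in naive libraries (-0.47 ± 0.13). Beyond Dmgdh, the lysosomal sulfatase gene Arsb (chromosome 13, 93771630 to 93943016) was low, at 1.09 ± 0.31 and 0.318 ± 0.09 CPM (-1.78 ± 0.38), and Lhfpl2 (chromosome 13, 94057796 to 94195409) had 13.7, 15.9 and 14.4 CPM in ground and 1.03, 1.11 and 0.831 CPM in naive libraries (-3.88 ± 0.26). These neighbours were chosen after their values were seen.

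Of the whole list of 30 betaine, folate and methionine enzymes, 10 rose and 12 fell (median -0.056). Gldc, the glycine decarboxylase of the cleavage system, had 138, 128 and 136 CPM in ground and 282, 278 and 268 CPM in naive libraries (1.04 ± 0.091), and the mitochondrial folate enzyme gene Mthfd2 rose by 0.88 ± 0.075. Sardh, the sarcosine dehydrogenase gene of the next step after Dmgdh, had no read in the ground and 10 reads in the naive libraries. With 3 counts over the group as the floor, this gives a bound of 3.70-fold higher in naive cells, not a measured fold change. The counting error of the 10 reads is left out of this bound. Gnmt, a glycine methyltransferase, rose at a low level, from 0.761 ± 0.15 to 2.10 ± 0.39 CPM. Proline enzymes and transporters rose in 6 and fell in 4 of 15. Oat, which links ornithine to proline, had 103, 101.3 and 109.6 CPM in ground and 37.3, 39.0 and 38.8 CPM in naive libraries (-1.45 ± 0.066). The prolyl hydroxylase gene P3h1 fell (-0.81 ± 0.084) and P4ha2 rose (1.0 ± 0.18), as did the neutral amino acid transporter gene Slc1a4 (0.78 ± 0.10).

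Targets of ATF4, the factor of the amino acid response, rose in 15 and fell in 6 of 27 (median 0.25). The asparagine synthetase gene Asns, a classical member, went against the majority, with 875, 848 and 857 CPM in ground and 353, 379 and 313 CPM in naive libraries (-1.31 ± 0.078, edgeR adjusted p = 4.08e-12). Stc2 (1.98 ± 0.20), Cebpb (1.95 ± 0.27), Vldlr (1.61 ± 0.30) and the cystine transporter gene Slc7a11 (1.13 ± 0.19) rose. Glutathione and NRF2 genes were split, with 7 up and 8 down of 21. Haem oxygenase, Hmox1, had 89.0, 87.3 and 83.4 CPM in ground and 285, 283 and 255 CPM in naive libraries (1.67 ± 0.07), and Srxn1 rose by 1.17 ± 0.11. Metallothionein Mt1 had 395, 366 and 425 CPM in ground and 162, 192 and 139.7 CPM in naive libraries (-1.27 ± 0.11), and the glutathione transferase gene Gstm2 fell (-1.52 ± 0.13) while Gstt1 rose (3.55 ± 0.36).

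Glycolysis genes rose in 10 and fell in 5 of 24 (median 0.14). Pdk1, a kinase that shuts pyruvate out of the mitochondrion, had 40.9, 43.4 and 56.6 CPM in ground and 229, 240.0 and 246 CPM in naive libraries (2.35 ± 0.17, edgeR adjusted p = 6.95e-11). The lactate exporter gene Slc16a3 had 8.41, 7.86 and 17.1 CPM and 90.2, 135 and 96.5 CPM (3.28 ± 0.37), ground replicate 3 being the highest ground library. The glucose transporter gene Slc2a1 rose by 1.24 ± 0.20, Ldha by 0.94 ± 0.20 and the muscle enolase gene Eno3 by 2.41 ± 0.11. The hexokinase gene Hk1 fell from 146, 152 and 139.8 CPM to 53.5, 47.0 and 49.1 CPM (-1.55 ± 0.09). Gapdh had 218 ± 20.1 and 234 ± 19.9 CPM and did not pass the test (0.10 ± 0.084, adjusted p = 0.319). Hypoxia response genes, which share Pdk1 and Slc2a1 with this list, rose in 5 and fell in 3 of 17, among them the mitophagy receptor gene Bnip3 (2.42 ± 0.39), the oxygen sensor gene Egln3 (1.96 ± 0.44) and Pfkfb4 (-1.02 ± 0.19).

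Sterol synthesis genes fell in 12 and rose in 2 of 25 (median -0.32). The rises came to 1 without ground replicate 1 or 2 or naive replicate 1 or 3, with the replicate block and in a fit of the 6 D3 libraries alone. Sqle, which makes squalene epoxide, had 175, 156 and 190.5 CPM in ground and 87.5, 91.9 and 92.4 CPM in naive libraries (-0.94 ± 0.08, edgeR adjusted p = 1.51e-09). The sterol carrier gene Stard4 fell (log2 change -0.72 ± 0.078), along with Insig1, an inhibitor of sterol sensing (-0.74 ± 0.19).

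Lysosome and autophagy genes fell in 22 and rose in 7 of 33 (median -0.35), and the count of falls was also 22 without naive replicate 2. The dipeptidyl peptidase gene Ctsc, a cathepsin, had 27.7, 28.3 and 27.9 CPM in ground and 3.60, 2.94 and 3.88 CPM in naive libraries (-3.01 ± 0.16, edgeR adjusted p = 5.61e-13). The membrane protein gene Lamp2 had 104, 113 and 111 CPM and 30.6, 27.8 and 32.0 CPM (-1.86 ± 0.093). Hexa, a subunit of beta-hexosaminidase, had 91.9, 91.6 and 90.0 CPM and 27.5, 34.5 and 30.0 CPM (-1.57 ± 0.094). The stages were well apart in these 3 genes. The cholesterol carrier gene Npc2 (-1.47 ± 0.11), the tetraspanin gene Cd63 (-1.37 ± 0.11), progranulin, Grn (-1.25 ± 0.088), the saposin precursor gene Psap (-1.23 ± 0.068), Ctsb (-1.22 ± 0.085) and the protective protein gene Ctsa (-1.11 ± 0.081) fell too. Lamp1, a paralog of Lamp2, changed least of those named (-0.20 ± 0.058), and its call was lost without a filter on low counts, in a fit of the 6 D3 libraries alone and without ground replicate 1. Tfeb (0.47 ± 0.11) and Tfe3 (0.25 ± 0.066), which encode transcription factors of lysosome synthesis, rose.

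Such genes often carry the E-box CACGTG, a sequence that TFEB and TFE3 can bind. It was searched as these 6 letters, which read the same on both strands. It lay in 8 of 32 promoters of the list (25%) against 8.02% of the promoters of all tested genes. The other lists searched were also above that share. Formative epiblast genes were at 16.7%, Wnt targets at 13.6%, ERK feedback regulators at 12.5% and immediate early and Myc genes at 12%. By gene with a promoter, 29.6% of the lysosome list and 30.8% of the formative list matched. Promoters of genes at least 2-fold lower were at 7.93%. The promoters of Ctsa and Lamp1 are shown for a larger and a slight fall, with each match in capitals.
Ctsa promoter (chr2:164833523-164833772, plus strand): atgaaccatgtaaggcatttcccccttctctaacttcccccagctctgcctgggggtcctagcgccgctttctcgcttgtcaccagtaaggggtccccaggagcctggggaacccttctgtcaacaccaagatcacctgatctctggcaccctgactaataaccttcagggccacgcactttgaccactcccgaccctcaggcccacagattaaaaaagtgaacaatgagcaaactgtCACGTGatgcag
Lamp1 promoter (chr8:13158911-13159160, plus strand): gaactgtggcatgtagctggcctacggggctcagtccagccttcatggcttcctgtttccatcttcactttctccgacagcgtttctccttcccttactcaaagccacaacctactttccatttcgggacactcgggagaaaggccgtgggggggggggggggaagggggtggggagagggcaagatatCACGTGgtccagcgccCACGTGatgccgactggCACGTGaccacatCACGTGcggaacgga

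Over the wider set of genes, the ETS letters CCGGAAGT, also searched on both strands, lay in 1.74% of the promoters of genes at least 2-fold higher, 1.27% of those at least 2-fold lower and 6.11% of those of the other tested genes, which is a description of these windows.

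Of 23 G1 cyclins, CDK inhibitors and pocket proteins, 6 rose and 11 fell, 3 and 3 of them at least 2-fold, where the shares over all genes are 12.3% and 8.34%. Ccnd2, cyclin D2, had 0.456, 0.651 and 0.493 CPM in ground and 24.2, 18.6 and 24.2 CPM in naive libraries (5.36 ± 0.34, edgeR adjusted p = 8.16e-12). The inhibitor gene Cdkn1a, also called p21, had 171, 172 and 175 CPM and 39.6, 40.7 and 45.9 CPM (-2.04 ± 0.13), and Cdkn2a fell from 34.0 ± 2.5 to 9.06 ± 1.5 CPM (-1.91 ± 0.14). Of 25 genes of S and M phase, 2 rose and 7 fell, with no change of 2-fold. Replication helicase genes Mcm4 (-0.41 ± 0.067), Mcm6 (-0.30 ± 0.08) and Mcm7 (-0.31 ± 0.074) and the ribonucleotide reductase gene Rrm2 (-0.39 ± 0.074) were among the falls. Targets of p53 fell in 10 and rose in 4 of 20 (median -0.23). Besides Cdkn1a, the falls included Sesn1 (-1.08 ± 0.088), Trp53inp1 (-0.85 ± 0.13) and Mdm2, the ubiquitin ligase of p53 (-0.49 ± 0.11), whereas the death genes Perp (1.93 ± 0.16) and Pmaip1, also called Noxa (1.5 ± 0.10), rose. Trp53 itself measured 498 ± 24 and 530.2 ± 36 CPM and did not pass the test (0.09 ± 0.069, adjusted p = 0.283).

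Markers of other cell types did not move one way, and several defining markers had no read in any D3 library, namely Msgn1 and Cer1 of the streak, Tpbpa and Prl3d1 of the trophoblast, Dcx of neurons, Fap of fibroblasts and Hbb-bh1 of blood. Primitive streak and mesendoderm genes summed to 41.1 to 46.5 CPM in ground and 13.9 to 14.6 CPM in naive libraries, and 6 fell and 5 rose of 17, with a median of 0.84, or 0.52 with genes near 0 reads at their bounds. Brachyury, listed as T, had 1.77, 2.18 and 1.64 CPM in ground and 0.743, 0.443 and 0.388 CPM in naive libraries (-1.83 ± 0.36), and Eomes (-1.38 ± 0.19), Gsc (-3.20 ± 0.31) and the homeobox gene Tlx2 (-5.50 ± 0.30) fell. The risers were all low, and Mesp2, a factor of paraxial mesoderm, rose from 0.737 ± 0.12 to 2.57 ± 0.46 CPM (1.79 ± 0.23). Trophectoderm markers rose in 5 and fell in 7 of 15, with 3 rises and 4 falls without naive replicate 2, and 4 falls also without ground replicate 1. Their sum was 128 to 129 and 105 to 110.1 CPM. Tfap2a fell from 19.4 ± 1.3 to 2.13 ± 0.18 CPM (-3.19 ± 0.17) and the keratin gene Krt8 by a smaller amount (log2 change -1.20 ± 0.15), whereas the keratin gene Krt18 rose from 3.66 ± 0.43 to 7.10 ± 1.1 CPM (0.96 ± 0.24) and Id2, given with the BMP genes, is a riser of this list too.

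Primitive endoderm markers rose in 11 and fell in 4 of 23, while their sum, most of it from Lamc1, Apoe and Sparc, was 1736 to 1824 CPM in ground and 1316 to 1529.7 CPM in naive libraries. The defining factor gene Gata6 had 0.253, 0.0930 and 0.110 CPM and 1.43, 1.44 and 2.10 CPM (3.40 ± 0.57), Sox7 0.152, 0.279 and 0.219 CPM and 2.69, 1.88 and 1.94 CPM (3.27 ± 0.37), and Sox17 0.0507, 0 and 0.164 CPM and 0.572, 0.720 and 0.609 CPM (3.12 ± 0.59). Gata4 did not pass the test (0.19 ± 0.31, adjusted p = 0.624). The basement membrane genes Lamb1 (2.35 ± 0.16) and Col4a1 (2.18 ± 0.23) rose and the coregulator gene Cited1 fell (-2.79 ± 0.32). Of 14 neurectoderm markers tested, 8 rose and 4 fell, summing to 204 to 227 and 358 to 392 CPM. Neurod1 rose from 1.20 ± 0.48 to 11.8 ± 0.49 CPM and Map2 by 2.54 ± 0.21, and Sox21 (-2.42 ± 0.16) and Lhx2 (-2.0 ± 0.37) fell.

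Fibroblast and feeder markers rose in 3 and fell in 5 of 20, with 3 falls without naive replicate 1 or 3. Their sum, 1761 to 1878 CPM in ground and 772 to 975 CPM in naive libraries, is mostly fibronectin. Fn1, the fibronectin gene, had 1467, 1508 and 1319 CPM and 621, 430.4 and 676 CPM (-1.31 ± 0.17). The defining collagen gene Col1a1 was at 1.40 ± 0.15 and 1.25 ± 0.16 CPM (-0.17 ± 0.27, adjusted p = 0.617). Thy1 rose (2.83 ± 0.19), as did Tagln (1.91 ± 0.28). Blood and endothelial markers summed to 122 to 129 and 72.3 to 80.0 CPM, and 6 rose and 3 fell of 12. Tal1 (4.56 ± 0.44) and Cd34 (1.69 ± 0.19) rose and the receptor gene Kdr fell (-1.55 ± 0.33). The part of these markers in the other changes was not tested.

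Epithelial genes rose in 14 and fell in 8 of 26 (median 0.72). Esrp1, a regulator of epithelial splicing, had 0.912, 0.604 and 0.438 CPM in ground and 26.6, 24.3 and 26.6 CPM in naive libraries (5.29 ± 0.14, edgeR adjusted p = 7.72e-18). The adhesion molecule gene Epcam rose by 1.78 ± 0.09, the claudin genes Cldn6 by 2.23 ± 0.15 and Cldn7 by 1.90 ± 0.27, and the zinc finger factor gene Ovol1 by 3.65 ± 0.39. E-cadherin, Cdh1, had 772, 787 and 721 CPM in ground and 617, 516 and 597 CPM in naive libraries (-0.40 ± 0.074). Mesenchymal transition genes fell in 8 and rose in 6 of 17 (median -0.65), with 5 falls without naive replicate 3. Snai1, a repressor of E-cadherin, went from 11.4, 8.09 and 7.88 CPM to 2.06, 1.44 and 2.21 CPM (-2.26 ± 0.25). Zeb2 (2.80 ± 0.51), the protease gene Mmp2 (2.66 ± 0.18) and the growth factor gene Tgfb1 (1.67 ± 0.12) rose, and the receptor gene Tgfbr2 fell (-1.56 ± 0.27). Twist1 was called at 0.62 ± 0.24 (adjusted p = 0.0355), but not without ground replicate 2, ground replicate 3 or naive replicate 2 (adjusted p = 0.192, 0.0667 and 0.194). Laminins and integrins rose in 7 and fell in 8 of 25, with Itga9 (2.90 ± 0.15) and Itgb7 (2.24 ± 0.11) among the rises and Itgav (-1.46 ± 0.14) among the falls.

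Hox genes, which pattern the trunk and are low in embryonic stem cells, were lower still in naive cells. Of 33, 27 were tested, 12 of which fell and 1 rose, and the summed level was 19.7 to 23.8 CPM in ground and 5.32 to 6.52 CPM in naive libraries. Hoxb9 had 5.07, 4.74 and 5.58 CPM in ground and 0.800, 0.610 and 0.498 CPM in naive libraries (-3.0 ± 0.29), and Hoxc4 had 3.34, 3.81 and 4.16 CPM and 0.0572, 0.0554 and 0.111 CPM (-5.54 ± 0.42). Of Hoxc5 the ground libraries held 47 reads and the naive libraries none. With 3 counts over the group as the floor, this gives a bound of 14.1-fold lower in naive cells, not a measured fold change. The counting error of the 47 reads is left out. Hoxc4 and Hoxc5 overlap in the annotation, and their split is uncertain. The list's median was -1.01, and -1.43 over 21 genes with such genes at their bounds and those at or under the floor in both stages left out. In a fit of the 6 D3 libraries alone 7 fell and none rose. Interferon and antigen presentation genes rose in 7 and fell in 6 of 23. Besides Ly6a, the antiviral synthetase gene Oas1a had 55.4, 53.7 and 53.9 CPM in ground and 5.26, 6.43 and 5.21 CPM in naive libraries (-3.27 ± 0.12), and Stat2 fell (-1.46 ± 0.11). The class I gene H2-K1 rose (1.19 ± 0.14), while its light chain gene B2m fell (-0.86 ± 0.18).

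**Figure D4:**
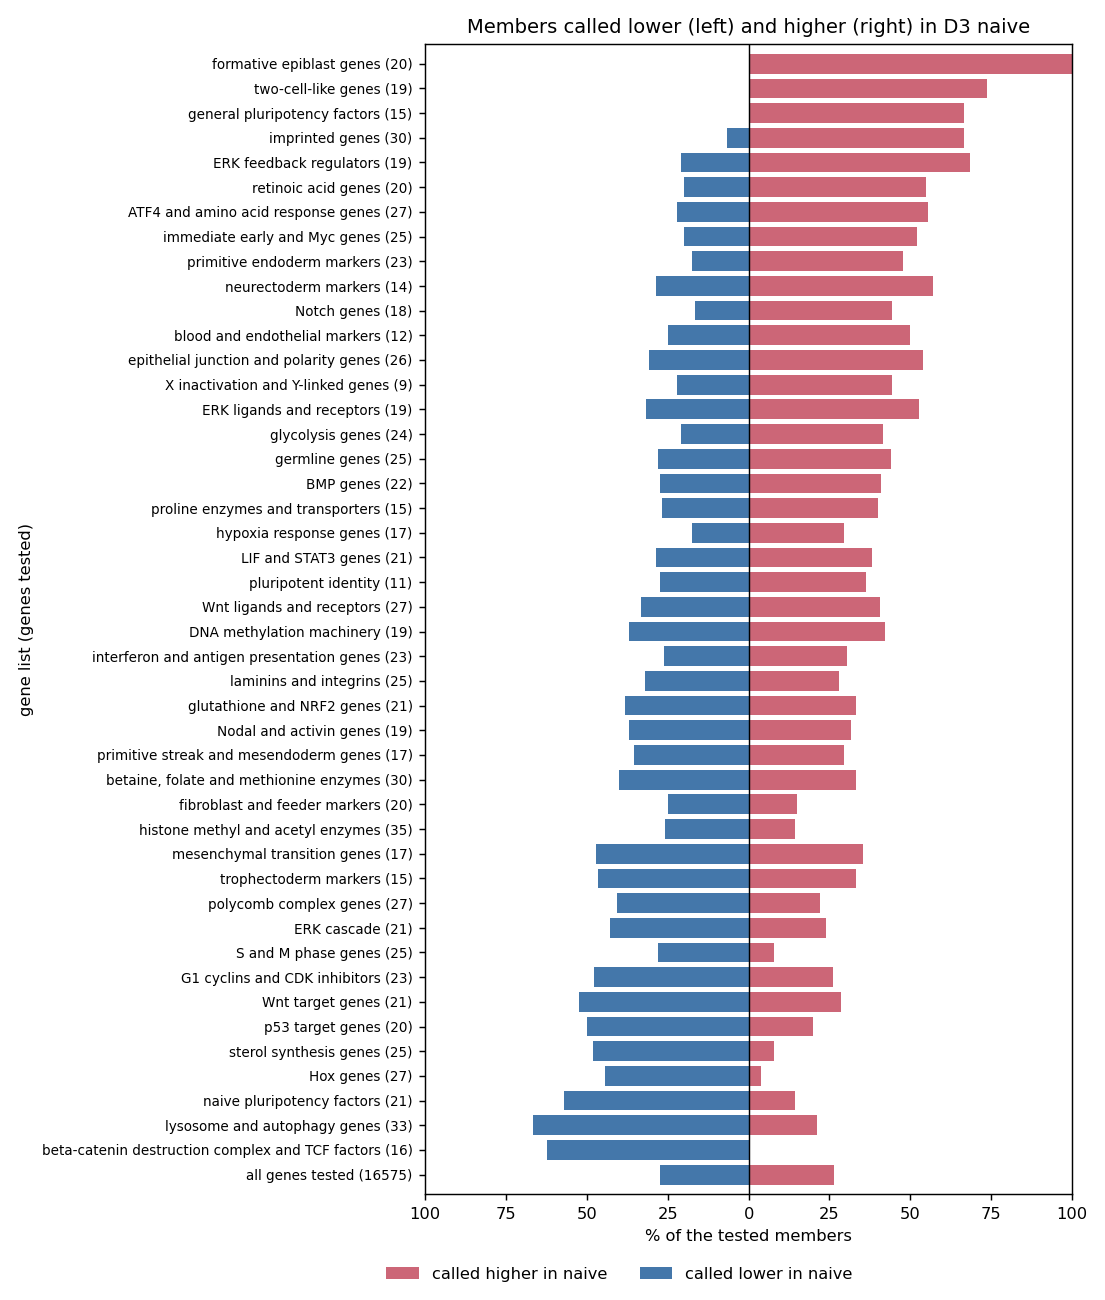
Share of the tested members of each of 45 gene lists called lower (left, blue) and higher (right, red) in D3 naive against ground (x axis, %), with all 16575 genes tested at the bottom (27.3% lower, 26.3% higher). Formative epiblast genes are at the top with 20 of 20 higher, and the destruction complex list is at the foot with 10 of 16 lower.

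The same withdrawal in A2 shares no library with the D3 comparison, and 51% of the genes tested were called there. Of the 8886 genes called in D3, 6742 were called in the same direction in A2 and 39 in the opposite one. Among the 3413 genes with a called change of at least 2-fold in D3, 2946 were called in the same direction in A2, 458 were not called and 9 were called in the opposite direction. The difference between the changes was tested by an interaction term over all genes. It was called in 508 genes (3.06%) and was at least 2-fold in 174 (1.05%), 82 with a more positive and 92 with a more negative change in D3. All 20 formative genes rose in D3 and 18 did in A2, and the lysosome list fell in 22 and 25.

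Otx2, a formative gene, differed between the lines. In A2 it went from 1.09, 1.66 and 1.69 CPM to 17.8, 21.5 and 20.1 CPM, a change of 3.76 ± 0.15 against 1.68 ± 0.12 in D3 (difference -2.07 ± 0.21, edgeR adjusted p = 2.78e-06). The D3 ground libraries were all above the A2 ground libraries, and the naive libraries of the lines overlapped. Fgf17 rose more in D3 than in A2 (difference 2.02 ± 0.15, adjusted p = 6.49e-08), with A2 libraries at 14.8, 15.7 and 16.1 CPM in ground and 94.8, 109 and 93.9 CPM in naive cells. Of the 8 genes named for the most positive difference, Cntfr came first (2.55 ± 0.39, adjusted p = 0.000495), followed by Chrna4, a nicotinic receptor subunit (2.44 ± 0.53), the X-linked Xlr5c (2.28 ± 0.51), Nnat (2.23 ± 0.39), the acyltransferase gene Agpat4 (2.13 ± 0.18) and the magnesium transporter gene Nipa1 (2.08 ± 0.23). Beside Fgf17 the remaining gene was Xlr5a (1.91 ± 0.37), whose reads may be shared with its near-identical neighbour Xlr5c. The difference of Xlr5c was not called without A2 ground replicate 2 or 3. Chrna4 did not pass the test in D3 (-0.28 ± 0.43, adjusted p = 0.619) and fell in A2 (-2.72 ± 0.27). Nipa1 rose in D3 (1.08 ± 0.18) and fell in A2 (-1.01 ± 0.14).

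On the negative side, the acute phase gene Saa3 had 9.47, 11 and 10.7 CPM in D3 ground and 0.343, 1.39 and 0.665 CPM in D3 naive libraries, against 0.0946, 0.111 and 0 CPM and 0.0577, 0.294 and 0.0487 CPM in A2 (difference -4.61 ± 1.06, edgeR adjusted p = 0.0164). That difference rests on 1 A2 library, since without A2 naive replicate 2 it was -3.32 and not called (adjusted p = 0.314), while the fall within D3 does not involve it. Trpm1 fell in both lines and more in D3 (difference -2.84 ± 0.44). The extracellular protein gene Lrrc15 (-2.43 ± 0.34), Parm1 (-2.17 ± 0.34), the guidance factor gene Slit2 (-2.02 ± 0.33) and the oocyte gene Nlrp4a (-2.09 ± 0.26) likewise had more negative changes in D3. Mobp, a myelin gene, fell in D3 (-1.5 ± 0.24) and had a change of 0.75 ± 0.22 in A2 (adjusted p = 0.00618, difference -2.25 ± 0.32). Dppa3 had 4.96, 3.92 and 4.18 CPM in A2 ground and 4.09, 4.95 and 5.80 CPM in A2 naive libraries, without the fall seen in D3 (A2 change 0.18 ± 0.19, adjusted p = 0.434; difference -1.92 ± 0.25, adjusted p = 9.66e-05).

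**Figure D5:**
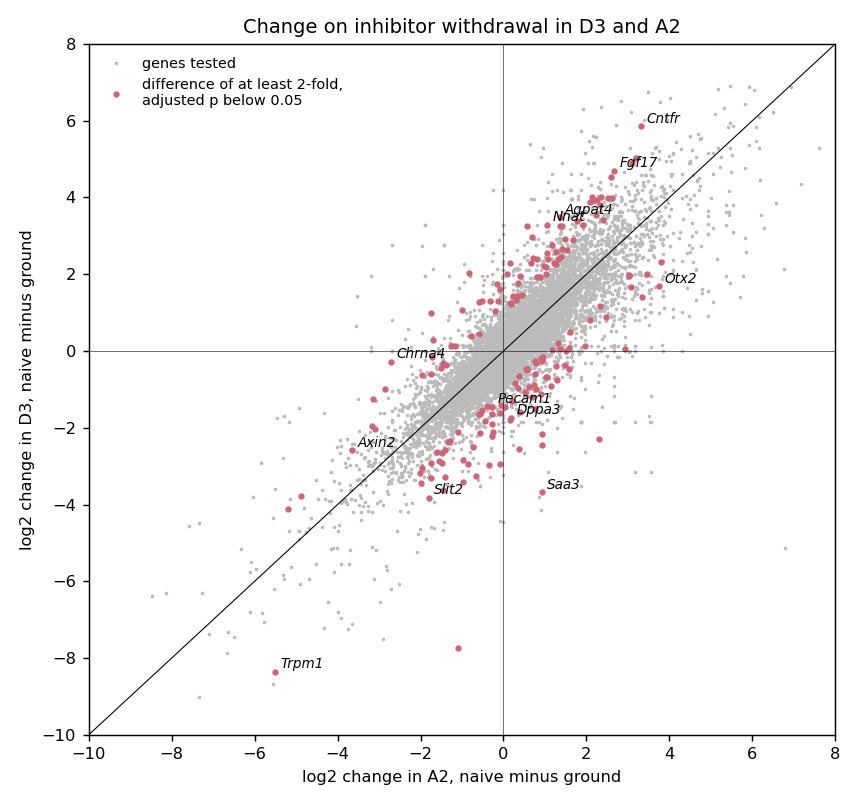
Log2 change on inhibitor withdrawal of each gene tested in A2 (x axis) and D3 (y axis), with the diagonal of equal change. Red points are the 174 genes whose changes differed by at least 2-fold at an adjusted p below 0.05, with Saa3, Trpm1 and Otx2 below the diagonal and Cntfr, Nnat and Chrna4 above it.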

How the data were processed

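Libraries made with the TruSeq RNA kit v2, which does not mark the strand, were analysed as 1 table of read counts per gene that the authors deposited, with 39396 Ensembl genes and 21 libraries. The programs named are HISAT2, SAMtools and featureCounts, on GRCm38, per the submitters' processing notes, with versions not given in the sources used here. Symbols came from the deposited table, in which 53 identifiers had none. Positions and exon lengths came from GENCODE M21, which matched 39396 identifiers. Counts of all 21 libraries were filtered by the 7 groups with filterByExpr (minimum count 10, minimum total 15) and scaled by TMM. This left 16575 genes with 99.89% or more of every library's counts. A model with 7 groups was fitted with edgeR 4.0.16 in R 4.3.3, and quasi-likelihood F tests were made of D3 naive against ground, of A2 naive against ground and of the difference, each adjusted by Benjamini and Hochberg over all genes tested.

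The libraries, gene lists and tests were chosen with earlier results of these data known. The genes named by rule were first the 12 called genes with the steepest rise and the 12 with the steepest fall. These had to reach a mean of 5 CPM in either stage and to have no overlap between the libraries of the stages. Also named were up to 5 called members of each of 45 lists with at least 1 CPM, and the 8 largest called differences from A2 each way. Clone and prediction names and symbols ending in -ps or -rs were left out of the steepest changes and of the differences from A2. Other genes were named after their values were seen. Alternatives were RLE and total-count scaling, DESeq2 1.42.0, no filter, a stricter filter, a fit of only the groups compared, a replicate block and leaving out each library in turn. Some genes are at 0 reads in a stage, and ratios for them use a floor of 3 counts over the group. Such ratios are bounds and leave out the counting error of the stage with reads. Intervals (95%, exact binomial) cover counting error only.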

Additional observations from a re-analysis of the deposited data

Results flagged for a closer look

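The change on inhibitor withdrawal differed by at least 2-fold between D3 and A2 in 23 named genes, by a test of the difference itself in edgeR's quasi-likelihood model with Benjamini-Hochberg adjustment over all genes tested. They are given as the log2 change in D3 minus the log2 change in A2. The difference was positive, with the more positive change in D3, for Cntfr (2.55), Chrna4 (2.44), Xlr5c (2.28), Nnat (2.23), Agpat4 (2.13), Nipa1 (2.08), Fgf17 (2.02), Xlr5a (1.91), Mmp2 (1.24), Perp (1.12), Dusp5 (1.10) and Axin2 (1.07). It was negative for Saa3 (-4.61), Trpm1 (-2.84), Lrrc15 (-2.43), Mobp (-2.25), Parm1 (-2.17), Nlrp4a (-2.09), Otx2 (-2.07), Slit2 (-2.02), Dppa3 (-1.92), Pecam1 (-1.18) and Tfap2a (-1.18).

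Axin2, the Wnt feedback inhibitor, fell in both lines, with log2 changes of -2.59 ± 0.15 in D3 and -3.66 ± 0.17 in A2, where it had 66.7, 47.8 and 57.2 CPM in ground and 4.90, 4.02 and 4.73 CPM in naive libraries (adjusted p of the difference = 0.00829). Dusp5, the ERK phosphatase gene, changed by 2.63 ± 0.20 in D3 and 1.53 ± 0.20 in A2, and the protease gene Mmp2 by 2.66 ± 0.18 and 1.42 ± 0.16. Perp changed by 1.93 ± 0.16 and 0.81 ± 0.14, Pecam1 by -1.45 ± 0.071 and -0.27 ± 0.068, and Tfap2a by -3.19 ± 0.17 and -2.01 ± 0.17. Xlr5c did not pass the test of the difference without A2 ground replicate 2 (2.22, adjusted p = 0.0501) or A2 ground replicate 3 (2.07, adjusted p = 0.0835), and that of Saa3 was not called without A2 naive replicate 2. The lines are single lines, so the difference is between these cultures.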

How the results depend on the processing

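The counts of genes that rose, fell or changed at least 2-fold in D3 stayed within 1.5 times the reported value in each alternative run. They were lowest in a fit of the 6 D3 libraries alone, where 14473 genes were tested. That fit gave 3865 higher and 3736 lower, 1658 and 1166 of them at least 2-fold, in place of 4360, 4526, 2031 and 1382. With no filter on low counts, the genes with a difference of at least 2-fold from A2 came to 136 with a more positive and 151 with a more negative change in D3, in place of 82 and 92. More genes were tested there. Leaving out 1 library at a time gave 4028 to 4389 genes higher and 3854 to 4244 lower, 1991 to 2065 and 1275 to 1427 of them at least 2-fold, and 62 to 90 and 66 to 92 genes that differed from A2. Whether the replicate numbers pair the stages is not in the labels. Deviations of same-numbered ground and naive libraries correlated at 0.052, -0.141 and -0.0821. These values cannot settle it, because the deviations in both stages followed exon length. With the replicate number as a block 4223 genes were higher and 4413 lower, 2008 and 1372 at least 2-fold, and 69 and 81 differed from A2. Total-count scaling gave 4806 higher and 4106 lower, 53.9% higher among those called in place of 49.1%. The change of Ctnnb1, which was not called, turned from -0.035 to 0.0046 with RLE factors, 0.0096 with total-count scaling, 0.0046 with DESeq2 and 0.020 without ground replicate 1, and leaving out 1 D3 library at a time gave -0.044 to 0.020. That of Chrna4, also not called, turned to 0.025 without ground replicate 3, with a range of -0.51 to 0.025 over the libraries left out. In a fit of the 6 D3 libraries alone Fgfr1 (adjusted p = 0.0567) and Twist1 (adjusted p = 0.0758) were not called. The cause of these shifts was not tested. At these depths genes under about 1 CPM rest on few reads.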
